A study of Mus musculus with 9 samples.

Results

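Pref-1, the protein of the gene Dlk1, and genes of the Notch pathway were followed through the differentiation of 3T3-L1 cells. The set held 10 genes, chosen by symbol: Dlk1 and its paralog Dlk2, the receptors Notch1, Notch2 and Notch3, the ligands Jag1 and Jag2, and the target genes Hes1, Hey1 and Heyl. All 10 were among the 19094 genes listed in the deposited tables, and 9 of them passed the filter on low counts and were tested among 13154 genes. 3T3-L1 is a clonal mouse embryo line of fibroblast-like preadipocytes that turn into fat cells when given inducing hormones. The series holds RNA-seq tables from 3 stages, each in 3 replicates. Cells of day 0 had not yet been induced. Day 4 cells had received dexamethasone, IBMX (a phosphodiesterase inhibitor) and insulin for 2 days and then maintenance medium with insulin for 2 days, and day 8 cells had stayed in maintenance medium for 4 more days. Early phase here means day 4 against day 0, late phase means day 8 against day 4, and whole process means day 8 against day 0. The 3 comparisons share samples, so they are not independent of each other. The study's methods describe each sample as a mixture of RNA, and no source used here says that replicates came from separate cultures. The p-values therefore measure the spread between these samples, which may be technical.

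Pref-1 is a transmembrane protein with EGF-like repeats that resembles Notch ligands but lacks the domain through which those ligands activate the receptor. Its outer part is released by the protease ADAM17, and the soluble form is known to hold preadipocytes back from differentiation. In the canonical Notch pathway a Jagged or Delta-like ligand on one cell binds a Notch receptor on its neighbour, the receptor is cut by ADAM10 and gamma-secretase, and the freed intracellular part joins RBPJ and a Mastermind protein on DNA and switches on Hes and Hey genes.

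The labels call the cells adipocytes on all days, and the extraction text in the labels names a nerve tissue, so marker genes were checked first. The 10 adipocyte markers summed to between 144 and 149 FPKM in the day 0 samples, of which Lpl gave 117 on average, and to between 6162 and 8835 FPKM at day 4 and between 9150 and 9968 FPKM at day 8. FPKM is the level of a gene scaled to its length and to the depth of the sample. Adipoq, the adipocyte hormone adiponectin, was at 0.503 ± 0.194 FPKM (SD, n = 3) before induction, 467 ± 93.5 after 4 days and 820 ± 59.6 after 8 days. Day 0 samples thus lacked the adipocyte profile that their label names. Of the 16 sensory neuron and glia markers, 14 were below 1 FPKM in every sample of each day, and the most abundant was S100b with 1.99, 6.52 and 4.32 FPKM at day 0, 4 and 8. The 7 endothelial markers in the tables summed to at most 1.17 FPKM in any sample. The 9 macrophage markers summed to between 5.13 and 9 FPKM, with Cd14 the most abundant, while Ptprc and Adgre1, which define blood-derived and macrophage cells, averaged at most 0.0167 and 0.01 FPKM on any day.

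Depth was even, with between 18216114 and 20452144 expected counts per sample, and a detection floor of 3 counts corresponded to between 0.147 and 0.165 CPM, the count scaled to library size (counting error only). A gene is said to have risen or fallen where its adjusted p was under 0.05 in edgeR's quasi-likelihood test, and to be differentially expressed where its fold change also exceeded 2. In the early phase 5 of the 9 tested genes fell and 0 rose. The background over all tested genes was 33.7% falling and 35.5% rising. Differential expression was reached by 3 of them, all lower at day 4 (Dlk1, Dlk2 and Notch3), against a background of 7.98% lower and 9.77% higher. Dlk2 passed the filter on low counts only through its day 0 samples, so its calls against day 0 could only be falls. Its early and whole-process calls therefore say nothing on the direction of the set. In the late phase 4 rose and 1 fell, beside 22.5% and 22.7% of all genes, and 3 were differentially expressed, all higher at day 8 (Dlk1, Notch3 and Hey1), beside a background of 4.24% higher and 2.81% lower. Over the whole process 3 rose and 4 fell, beside 34.8% and 36.2% of all genes. Here 1 was differentially expressed with a higher level (Hey1) and 1 with a lower level (Dlk2), beside backgrounds of 10.3% and 7.7%. The median log2 fold change of the 9 tested genes was -0.46 in the early phase, 0.046 in the late phase and -0.34 over the whole process, where the medians of all tested genes were 0.016, -0.0077 and -0.018. At an unadjusted p under 0.05 the count of rising members in the early phase was also 0, and edgeR's exact test and DESeq2 found the same number of differentially expressed members as the quasi-likelihood test in each comparison.

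**Figure D1:**
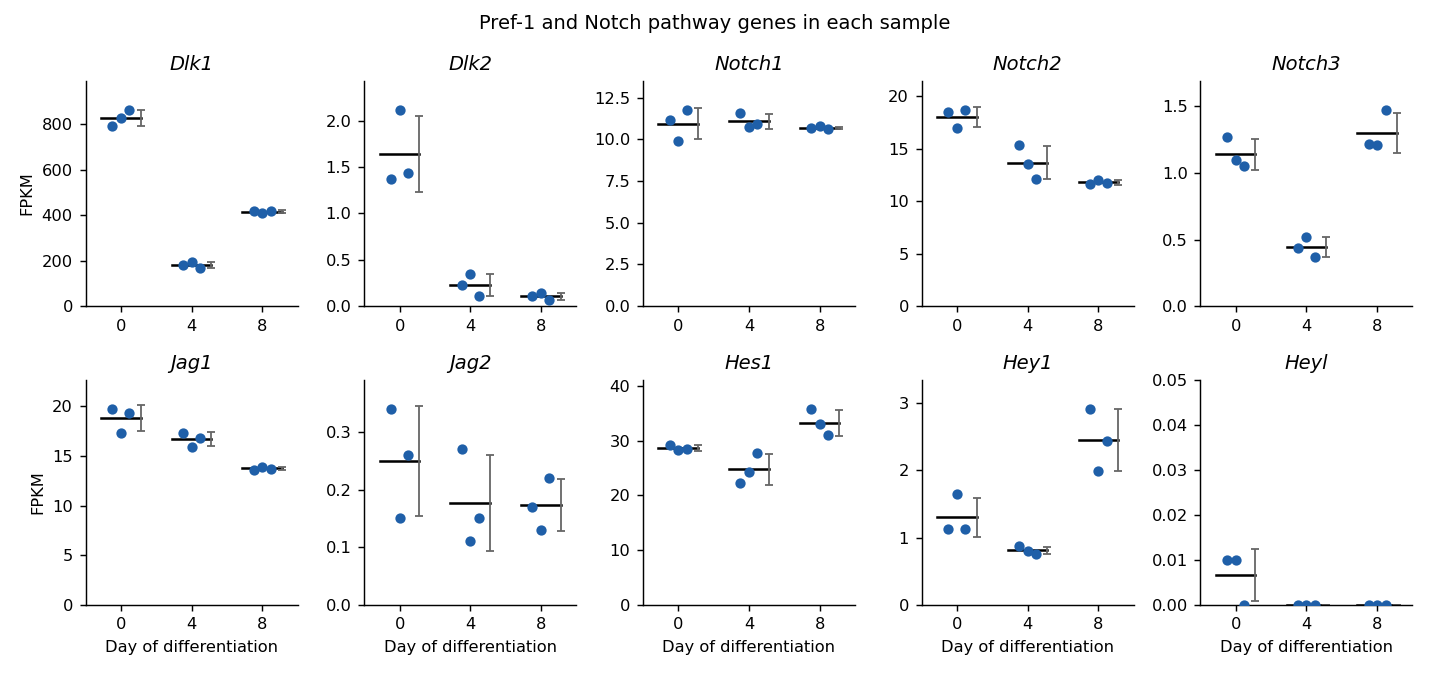
Level in FPKM (vertical axis, from 0, scaled separately for each gene) of the 10 genes by day of differentiation. Points are samples, horizontal lines are means and grey bars are SDs of 3 samples; Dlk1 and Notch3 are lowest at day 4, and Heyl is at or near 0 throughout.

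Dlk1 (NCBI gene ID 13386) was by far the most abundant of the 10 genes on every day. Its level fell early and partly returned late. The day 0 samples held 794, 828 and 861 FPKM, the day 4 samples 183, 193 and 166 FPKM, and the day 8 samples 418, 409 and 419 FPKM. The days did not overlap, with day 4 lowest, day 8 between and day 0 highest. The expected counts lay between 65887 and 76963 at day 0, between 14277 and 17247 at day 4, and between 36113 and 36794 at day 8, so counting error was small beside the spread between samples. Dlk1 fell 4.37-fold in the early phase (log2 fold change -2.13 ± 0.06, SE, adjusted p = 3.4e-14, edgeR) and rose 2.37-fold in the late phase (1.25 ± 0.059, adjusted p = 9.3e-11, edgeR). Day 8 remained 1.84-fold below day 0 (-0.88 ± 0.058, adjusted p = 9.6e-10, edgeR), which passed the p threshold but not the fold threshold. In bulk RNA such as this, fewer cells that express a gene and less RNA per cell cannot be told apart.

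Among all genes ranked by FPKM, Dlk1 stood at places 59 to 70 in the day 0 samples, at 339 to 412 at day 4 and at 153 to 156 at day 8. It took between 0.347% and 0.376% of all expected counts at day 0, between 0.0725% and 0.0845% at day 4 and between 0.179% and 0.183% at day 8. The transcript length that the authors' quantification assigned to Dlk1 lay between 4335 and 4338 bases in all 9 samples, so the assigned length differed between days by under 3 bases. Of the annotated Dlk1 transcripts that could be matched in GENCODE vM21, 5 had lengths from 1129 to 4653 bases. The FPKM level of Dlk1, unlike its fold changes, depends on which of these the reads were assigned to.

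The 9 preadipocyte and fibroblast markers, fixed as a list beside the members, did not move as one group. In the early phase 2 of the 9 rose and 6 fell, beside 35.5% and 33.7% of all tested genes, and in the late phase 4 rose and 3 fell, beside 22.5% and 22.7%. Pdgfrb, a growth factor receptor, fell early and rose late (-0.61 and 0.88 on the log2 scale), as did the surface protein Thy1 (-0.44 and 0.45) and the collagen gene Col1a1 (-0.18 and 0.85). Pdgfra, the related receptor, went the other way (0.84 and -0.59), and Zfp423, a preadipocyte transcription factor, rose in both phases (0.33 and 0.72). S100a4 did not pass the test early (0.090, adjusted p = 0.26, edgeR). Ly6a, the surface antigen Sca-1, fell 3.72-fold early (log2 fold change -1.90 ± 0.046, adjusted p = 6.6e-15, edgeR), and its late difference was -0.095 ± 0.05 (adjusted p = 0.14, edgeR). Vim, which encodes the filament protein vimentin, averaged 2541, 2054 and 1425 FPKM on the 3 days. The list summed to between 5233 and 5550 FPKM before induction, between 4363 and 4661 at day 4, and between 4749 and 4946 at day 8, with Cd34 below 1 FPKM in every sample. The part of the cell composition in the Dlk1 levels was not tested.

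Dlk2 (ID 106565), a paralog whose protein shares the EGF-like repeats of Pref-1, was rare at all stages and fell without returning. Its expected counts were 43, 59 and 45 at day 0, 7, 10 and 3 at day 4, and 3, 4 and 2 at day 8. Day 0 lay above both later days, whose counts overlapped near the detection floor. The filter on low counts admitted Dlk2 only through day 0, so the direction of its calls against day 0 was fixed in advance. Dlk2 fell 7.08-fold in the early phase (log2 fold change -2.82 ± 0.34, adjusted p = 1.6e-06, edgeR) and over the whole process (-3.90 ± 0.40, adjusted p = 2.3e-07, edgeR). Since the later samples held so few counts, the ratio of the summed counts was also taken. It was 7.16 for day 0 over day 4 (147 against 20 counts, exact 95% interval 4.47 to 12.1) and 15.4 for day 0 over day 8 (147 against 9 counts, 7.90 to 34.4), intervals that cover counting error only. The late difference was -1.08 ± 0.59 (adjusted p = 0.15, edgeR) and was not detectable at this depth. Within each sample the FPKM of Dlk1 exceeded that of Dlk2 by between 392 and 598 times before induction, between 552 and 1508 times at day 4, and between 2921 and 5989 times at day 8. The Dlk2 transcript length in the tables was 1544 bases at day 0 and 1415 at day 8, which bears on the FPKM but not on the count test.

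Of the canonical ligands, Jag1 (ID 16449), which encodes Jagged1, made up nearly all of the measured ligand RNA and declined slowly. It held 19.7, 17.3 and 19.4 FPKM at day 0, 17.3, 15.9 and 16.8 FPKM at day 4, and 13.6, 13.9 and 13.7 FPKM at day 8. The day 8 samples lay below all others, while day 0 and day 4 overlapped. The early difference was -0.11 ± 0.055 on the log2 scale (adjusted p = 0.10, edgeR), and Jag1 fell in the late phase (-0.24 ± 0.056, adjusted p = 0.0028) and over the whole process (-0.34 ± 0.056, adjusted p = 4.6e-05). Jag1 took 98.1% ± 0.529 (SD, n = 3) of the summed FPKM of Jag1, Jag2, Dll1, Dll3 and Dll4 before induction, 96.5% ± 0.459 after 4 days and 96.0% ± 0.95 after 8 days.

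Jag2 (ID 16450), the gene of Jagged2, was near the limit of detection. Its expected counts were 28, 11 and 22 at day 0, 22, 9 and 12 at day 4, and 14, 11 and 18 at day 8. The 3 days overlapped. No difference of Jag2 was detectable at this depth, with log2 differences of -0.46 ± 0.38 early, 0.046 ± 0.40 late and -0.41 ± 0.38 over the whole process.

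Of the receptors, Notch1 (ID 18128) kept about the same level while Notch2 declined. Notch1 held 11.2, 9.91 and 11.7 FPKM at day 0, 11.6, 10.7 and 10.9 FPKM at day 4, and 10.7, 10.8 and 10.6 FPKM at day 8. The 3 days overlapped. Its log2 differences were 0.083 ± 0.059 in the early phase (adjusted p = 0.22, edgeR), -0.005 ± 0.059 in the late phase (adjusted p = 0.96) and 0.078 ± 0.059 over the whole process (adjusted p = 0.24), and the sign of the last turned when library size alone was used for scaling.

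Notch2 (ID 18129) had 18.5, 16.9 and 18.6 FPKM at day 0, 15.3, 13.6 and 12.1 FPKM at day 4, and 11.6, 12.04 and 11.7 FPKM at day 8. Every day 0 sample lay above every later sample. Day 4 and day 8 were just apart in FPKM but overlapped in CPM, with 129 in the lowest day 4 sample and 133 in the highest day 8 sample. Notch2 fell early (log2 fold change -0.33 ± 0.069, adjusted p = 0.00046, edgeR) and over the whole process, where it was 1.42-fold lower at day 8 (-0.50 ± 0.07, adjusted p = 8.2e-06). The late difference was -0.17 ± 0.07 (adjusted p = 0.064). Within samples the ratio of Notch2 to Notch1 FPKM averaged 1.65 ± 0.0602 (SD, n = 3) before induction, 1.23 ± 0.112 after 4 days and 1.10 ± 0.0159 after 8 days.

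**Figure D2:**
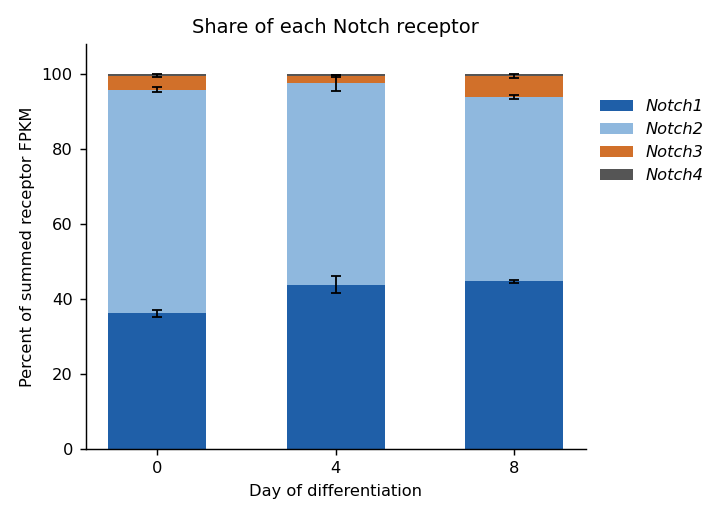
Share of each receptor gene in the summed FPKM of Notch1 to Notch4 (vertical axis, percent) by day of differentiation, as means of 3 samples with the SD of each share at the top of its segment for Notch1, Notch2 and Notch3. Notch2 took 59.7% at day 0 and 49.3% at day 8, and Notch3 was smallest at day 4 with 1.75%.

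Notch3 (ID 18131), a receptor best known from smooth muscle cells and pericytes around vessels, was much rarer than Notch1 per length and dipped at day 4. Its samples held 1.27, 1.10 and 1.05 FPKM at day 0, 0.44, 0.52 and 0.37 FPKM at day 4, and 1.22, 1.21 and 1.47 FPKM at day 8, from 59 to 235 expected counts each. Day 4 lay below both other days, which overlapped in FPKM but not in CPM (8.15 to 9.81 at day 0 against 10.1 to 12.4 at day 8). Notch3 fell 2.44-fold early (log2 fold change -1.29 ± 0.14, adjusted p = 7.4e-07, edgeR) and rose 3.01-fold late (1.59 ± 0.14, adjusted p = 1.6e-07, edgeR). Over the whole process it rose by 0.30 ± 0.13 on the log2 scale (adjusted p = 0.042). On the log2(FPKM + 1) scale, which compresses levels this low, neither the early nor the late difference exceeded a fold change of 2 (-0.57 and 0.67). The early fall was also not called by glmTreat, which tests against a fold change of 2.

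Mural and muscle markers moved in both directions early and in 1 direction late. Of the 9 listed, 8 were in the tables and 5 were tested. In the early phase 2 of the 5 rose (Myh11 and Des) and 2 fell (Acta2 and Cspg4), beside 35.5% and 33.7% of all tested genes. Cspg4 passed the filter on low counts through its day 0 samples, so its early call could only be a fall. In the late phase, in which Notch3 rose, 4 rose and 0 fell by edgeR, also at an unadjusted p under 0.05, beside 22.5% and 22.7% of all tested genes. The 8 markers summed to between 282 and 348 FPKM at day 0, between 41.9 and 63.1 at day 4 and between 85.4 and 98.8 at day 8. Most of the sum was Acta2, smooth muscle actin, with 301 ± 36.2, 47.5 ± 11.3 and 79.4 ± 7.51 FPKM (SD, n = 3), which is also a marker of activated fibroblasts. Rgs5 and Cspg4, which mark pericytes, averaged at most 0.07 and 0.09 FPKM on any day, and Myh11, a smooth muscle myosin, averaged 0.167, 1.18 and 1.82 FPKM. Des, the muscle filament protein desmin, averaged 3.74, 4.51 and 8.23 FPKM and rose in both phases (adjusted p = 0.0025 and 1.2e-07, edgeR). Acta1, skeletal muscle actin, averaged 0.73, 0.647 and 1.4 FPKM. The part of such cells in the Notch3 level was not tested.

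Notch1 took 36.2% ± 0.974 (SD, n = 3) of the summed receptor FPKM before induction, 43.8% ± 2.34 after 4 days and 44.7% ± 0.37 after 8 days. The share of Notch2 was 59.7% ± 0.621, 53.8% ± 2.14 and 49.3% ± 0.547, and that of Notch3 3.78% ± 0.396, 1.75% ± 0.288 and 5.44% ± 0.61. Notch1 and Notch2 together thus gave most of the receptor RNA on each day. Notch4, the receptor best known from endothelial cells, had 14 to 29 expected counts per sample and shares of 0.409%, 0.651% and 0.6%, and its differences between days did not pass the test (adjusted p = 0.16, 0.68 and 0.36 in the early phase, the late phase and the whole process).

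Dlk1 and Notch3 were the members that were differentially expressed in both phases, lower early and higher late, and the 250 bases before the start of each are printed here, 5′ to 3′ on the strand of the gene, from RefSeq (GRCm38.p6). They were searched for the core of the RBPJ binding motif, GTGGGAA, and for its shorter form TGGGAA, which lies within it, on both strands. Matches would stand in capitals, and neither window held one. The Dlk1 window is chr12:109452573-109452822 on the plus strand, and the Notch3 window is chr17:32166891-32167140 on the minus strand.
Dlk1: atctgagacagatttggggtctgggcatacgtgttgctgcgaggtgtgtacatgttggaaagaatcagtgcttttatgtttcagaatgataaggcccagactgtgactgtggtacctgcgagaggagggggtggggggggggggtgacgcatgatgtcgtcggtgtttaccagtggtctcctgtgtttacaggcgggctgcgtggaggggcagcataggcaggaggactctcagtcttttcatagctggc
Notch3: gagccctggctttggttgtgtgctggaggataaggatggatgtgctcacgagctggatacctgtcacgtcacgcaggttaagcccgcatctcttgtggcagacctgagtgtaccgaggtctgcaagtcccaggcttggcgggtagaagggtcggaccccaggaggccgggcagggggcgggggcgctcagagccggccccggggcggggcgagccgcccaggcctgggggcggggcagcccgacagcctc

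The windows differed in composition. The Dlk1 window was 54.8% G or C with 8 CpG dinucleotides, and the Notch3 window 68.8% with 17, where the median over 32851 promoter windows was 52.4% G or C. The table matched 7 of the 10 members (Dlk1, Dlk2, Notch1, Notch2, Notch3, Jag1 and Jag2) with 8 windows, 2 of them for Dlk2. Of these 8 windows 0 held the motif in either form, where 5.42% of all windows held GTGGGAA and 21.6% held TGGGAA. A missing match says only that these letters are not in these 250 bases.

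Both expressed target genes had their lowest means at day 4 and their highest at day 8. Hes1 (ID 15205), a transcriptional repressor that many signals besides Notch can induce, was the second most abundant of the 10 genes. It held 29.3, 28.3 and 28.6 FPKM at day 0, 22.3, 24.3 and 27.8 FPKM at day 4, and 35.8, 33.1 and 31.0 FPKM at day 8. Day 8 lay above the other days. Day 0 and day 4 were just apart in FPKM but overlapped in CPM, the scale of the test (39.7 to 41.6 against 33.0 to 41.0), and the early difference of -0.14 ± 0.074 on the log2 scale did not pass the test (adjusted p = 0.092, edgeR). Hes1 rose 1.39-fold in the late phase (0.47 ± 0.073, adjusted p = 6.7e-05, edgeR) and 1.25-fold over the whole process (0.33 ± 0.072, adjusted p = 0.00076).

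Hey1 (ID 15213), a repressor that is a direct target of the RBPJ complex, was rarer and changed more. Its values were 1.13, 1.64 and 1.13 FPKM at day 0, 0.87, 0.80 and 0.76 FPKM at day 4, and 2.91, 1.99 and 2.43 FPKM at day 8, from 33 to 130 expected counts each. The days did not overlap. Hey1 fell early (log2 fold change -0.60 ± 0.21, adjusted p = 0.019, edgeR) and rose 3.11-fold late (1.64 ± 0.19, adjusted p = 4.1e-06, edgeR), a call that was lost with limma on log2(FPKM + 1), where the value was 0.92. Over the whole process it rose 2.05-fold (1.03 ± 0.18, adjusted p = 8.5e-05), which lies just past the fold threshold. The value was 0.94 without day 0 replicate 1, 0.94 without day 0 replicate 3 and 0.90 without day 8 replicate 1, each below that threshold, and 0.92 with library size alone.

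Heyl (ID 56198) had 1, 1 and 0 expected counts at day 0 and 0 at both later days. It was at or below the floor of 3 counts in every sample, was not tested, and no fold is given. Within the summed FPKM of the 3 target genes, Hes1 took 95.6% ± 1.003 (SD, n = 3) before induction, 96.8% ± 0.553 after 4 days and 93.2% ± 0.996 after 8 days, with Hey1 taking nearly all of the rest.

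**Figure D3:**
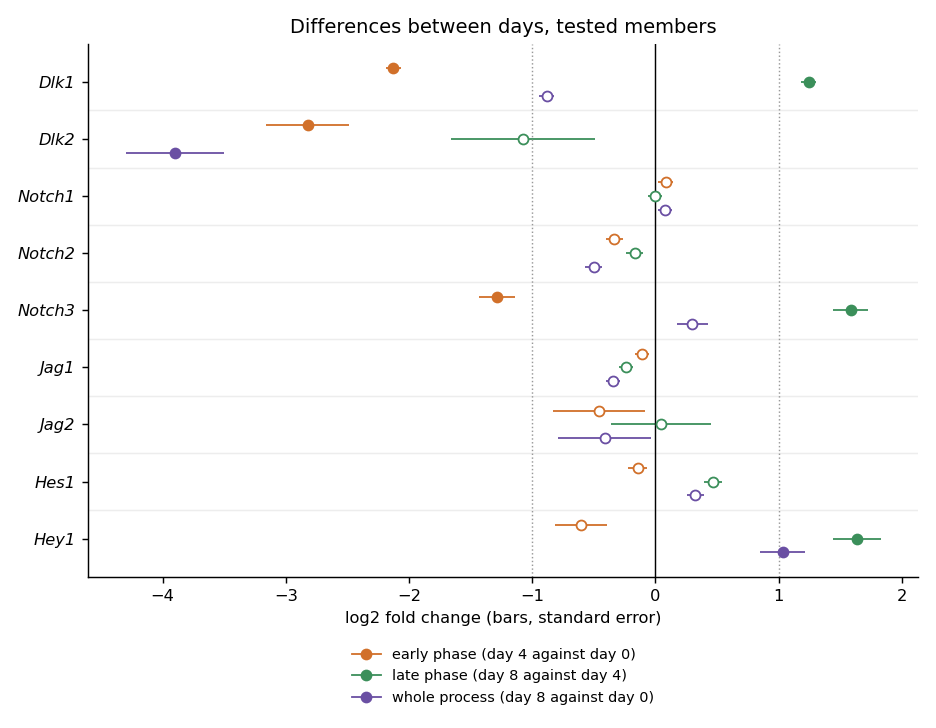
Log2 fold change (horizontal axis) of the 9 tested genes in the early phase, the late phase and the whole process, with standard errors from edgeR's quasi-likelihood test on 9 samples. Filled points are differentially expressed, beyond the dotted lines that mark a fold change of 2; Dlk1 and Notch3 are filled below 0 in the early phase and above 0 in the late phase.

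Per length, the order of the genes at day 0 was Dlk1, Hes1, Jag1, Notch2, Notch1, Dlk2, Hey1, Notch3, Jag2 and Heyl. Neighbours whose samples overlapped were Jag1 and Notch2, Dlk2 and Hey1, and Hey1 and Notch3. At day 4 the order of the first 5 was the same, followed by Hey1, Notch3, Dlk2 and Jag2, of which Dlk2 and Jag2 overlapped. At day 8 Jag2 and Dlk2 changed places and still overlapped. The distance from Dlk1 to Hes1, the next gene, was 28.8-fold at day 0, 7.29-fold at day 4 and 12.5-fold at day 8.

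The other genes of the pathway were taken from 9 lists with 76 genes, of which 75 were in the tables and 63 passed the filter. In the early phase 23 of the 63 rose and 19 fell, shares near the 35.5% and 33.7% of all tested genes. Of these 4 and 4 were differentially expressed, beside 9.77% and 7.98% of all genes. In the late phase 12 rose and 18 fell, beside 22.5% and 22.7% of all genes, with 35 at an unadjusted p under 0.05. Here 0 were differentially expressed by edgeR's quasi-likelihood test, by its exact test or by DESeq2. The background over all genes by the quasi-likelihood test was 4.24% higher and 2.81% lower. Over the whole process 20 rose and 28 fell, beside 34.8% and 36.2% of all genes, with 6 and 4 differentially expressed, beside 10.3% and 7.7%. The median log2 fold change of the 63 genes was -0.00025, -0.066 and -0.076 in the 3 comparisons, beside 0.016, -0.0077 and -0.018 for all tested genes.

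Among further ligands, Dll1 and Dll4, the Delta-like ligands, were barely detected, with means of at most 0.29 and 0.09 FPKM. Dll1 rose 2.86-fold early (log2 fold change 1.51 ± 0.36, adjusted p = 0.0015, edgeR) from 5 to 7 expected counts per day 0 sample, and Dll4 was not tested. The filter on low counts admitted Dll1 only through the later days, so its calls against day 0 could only be rises. Nov, a secreted matricellular protein that binds Notch1, fell from 4.15 ± 0.546 FPKM to 0.72 ± 0.135 (log2 fold change -2.46 ± 0.17, adjusted p = 1.8e-09) and rose late to 1.22 ± 0.15 (0.80 ± 0.20, adjusted p = 0.0036). Mfap5, a microfibril protein that can bind Jagged1, rose over the whole process from 5.12 ± 0.582 to 9.74 ± 0.44 FPKM (1.04 ± 0.12, adjusted p = 8.9e-07), a value that was 0.95 without day 0 replicate 2. With it left out, and also with library size alone, glmTreat and limma with either pseudocount, Mfap5 was not called differentially expressed. Egfl7, a secreted protein that can antagonise Notch, rose from 0.52 ± 0.128 to 1.21 ± 0.391 FPKM (1.35 ± 0.31, adjusted p = 0.0011).

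Lfng showed the largest early and whole-process differences of the 63 genes. It encodes Lunatic fringe, a glycosyltransferase that adds sugars to the EGF-like repeats of Notch receptors and so changes which ligands they answer to. Its levels were 1.79, 2.29 and 1.55 FPKM at day 0, 11.7, 11.7 and 11.4 FPKM at day 4, and 11, 13.2 and 12.6 FPKM at day 8. Both later days lay above day 0 and overlapped each other. Lfng rose 6.51-fold early (log2 fold change 2.70 ± 0.11, adjusted p = 3.8e-12, edgeR), and its late difference was 0.12 ± 0.088 (adjusted p = 0.27). Of its relatives, Rfng rose early by 0.53 on the log2 scale (adjusted p = 3.1e-08), and Mfng was absent from the day 0 tables, which was taken as 0, and averaged 0.18 FPKM at day 8. The other glycosylation genes in the list stayed within a fold change of 2 in each comparison.

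Of the 10 genes of receptor cleavage, 5 rose and 1 fell early, beside 35.5% and 33.7% of all tested genes, and 0 rose and 3 fell late by edgeR, beside 22.5% and 22.7% (0 and 5 at an unadjusted p under 0.05). Differential expression was reached by 1 of them, early and over the whole process. The background over all genes was 9.77% higher and 7.98% lower early, and 10.3% and 7.7% over the whole process. Psen2, a catalytic subunit of gamma-secretase, rose from 8.34 ± 0.673 FPKM at day 0 to 29.9 ± 2.53 at day 4 (log2 fold change 1.91 ± 0.078, adjusted p = 3e-12, edgeR) and fell to 22.5 ± 0.826 at day 8 (-0.36 ± 0.07, adjusted p = 0.00053). Adam10, the protease of the first activating cut, fell late by 0.78 ± 0.051 on the log2 scale (adjusted p = 4.4e-09) after an early difference of -0.11 ± 0.05 (adjusted p = 0.058). Adam17, which sheds Pref-1, was at 11.99 ± 0.745, 12.9 ± 0.793 and 11.6 ± 0.383 FPKM, and rose early by 0.17 ± 0.063 on the log2 scale (adjusted p = 0.024).

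**Figure D4:**
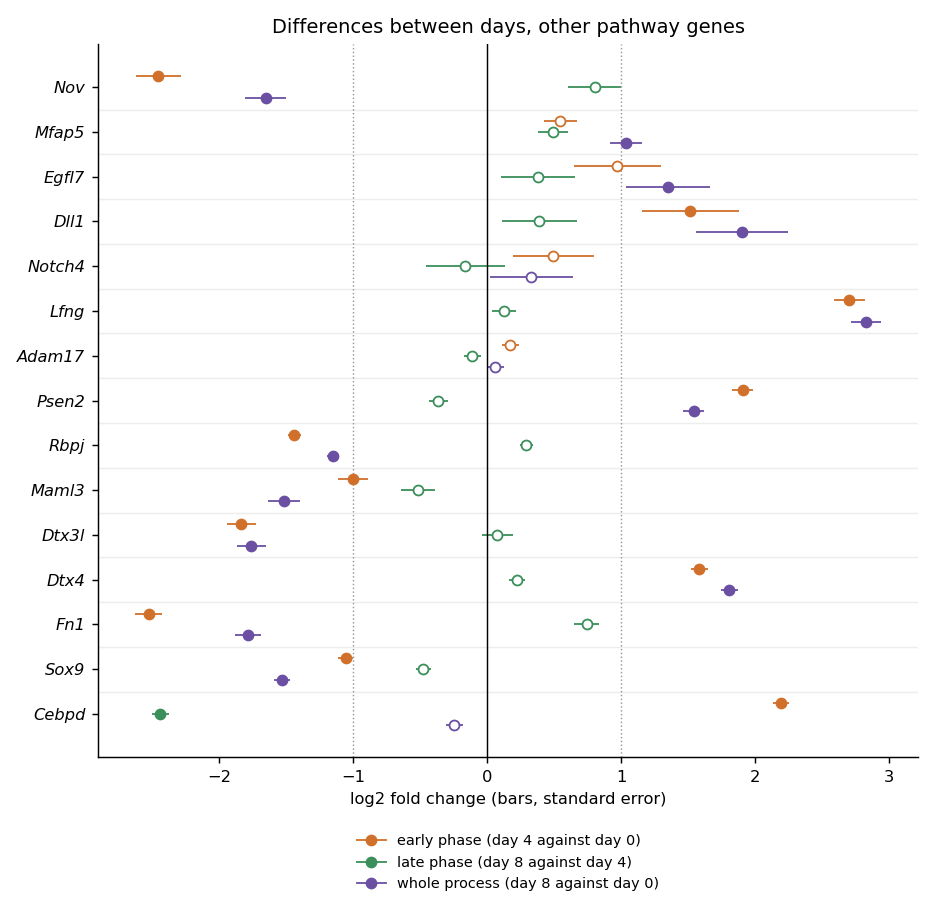
Log2 fold change (horizontal axis) of further pathway genes and Pref-1 readouts in the early phase, the late phase and the whole process, with standard errors from edgeR's quasi-likelihood test on 9 samples. Filled points are differentially expressed, beyond the dotted lines that mark a fold change of 2; Lfng, Psen2 and Dtx4 are filled above 0 and Rbpj, Dtx3l and Nov below 0 in the early phase.

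Nuclear coactivators fell more often than they rose. In the early phase 7 of the 9 fell and 1 rose, and over the whole process again 7 fell and 1 rose. In the late phase 4 fell and 2 rose. Among all tested genes 33.7% fell and 35.5% rose early, 22.7% and 22.5% late, and 36.2% and 34.8% over the whole process. The 9 genes had median log2 fold changes of -0.45 early, -0.13 late and -0.72 over the whole process. For all tested genes the medians were 0.016, -0.0077 and -0.018. Rbpj, the DNA-binding protein of the pathway, held 34.2, 37.2 and 35.2 FPKM at day 0, 12.7, 12.1 and 12.2 FPKM at day 4, and 15.1, 14.9 and 13.9 FPKM at day 8. The days did not overlap, and day 0 stood far above the rest. Rbpj fell 2.72-fold early (log2 fold change -1.44 ± 0.049, adjusted p = 2.6e-13, edgeR) and rose late by 0.29 ± 0.05 (adjusted p = 0.00017). Maml3, a Mastermind coactivator, fell from 4.05 ± 0.269 to 1.93 ± 0.382 FPKM early, a fold change of 2.004 (-1.003 ± 0.11, adjusted p = 7.9e-07) that was under the fold threshold without day 0 replicate 3 (-0.95) or day 4 replicate 3 (-0.87). The call was also lost with no filter, with at least 10 counts in every sample, with glmTreat and with limma on log2(FPKM + 1). Over the whole process it fell by 1.52 ± 0.12 on the log2 scale (adjusted p = 9.1e-09). The coactivator that rose early and over the whole process was Kat2b, a histone acetyltransferase, with 0.91 ± 0.049 on the log2 scale early (adjusted p = 9.2e-11). Late, Maml1 rose beside Rbpj (0.37 on the log2 scale, adjusted p = 3.3e-05, edgeR).

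Of the 14 corepressor genes 0 were differentially expressed in any comparison, with edgeR's quasi-likelihood test. The background over all genes was 9.77% higher and 7.98% lower early, 4.24% and 2.81% late, and 10.3% and 7.7% over the whole process. At an adjusted p under 0.05 alone 3 of the 14 rose and 3 fell early, 3 rose and 5 fell late, and 2 rose and 8 fell over the whole process. Of all tested genes 35.5% rose and 33.7% fell early, 22.5% and 22.7% late, and 34.8% and 36.2% over the whole process. Among negative regulators, Dtx4, a ubiquitin ligase of the Deltex family, rose from 3.21 ± 0.115 FPKM at day 0 to 9.19 ± 0.573 at day 4 and 10.4 ± 0.243 at day 8 (log2 fold change 1.58 ± 0.064 early, adjusted p = 2.7e-12). Its relative Dtx3l fell from 18.1 ± 3.51 to 4.84 ± 0.344 FPKM early (-1.84 ± 0.11, adjusted p = 2.5e-10) and was at 4.93 ± 0.247 FPKM at day 8. Of the other Hes and Hey genes, Hes6, which counteracts Hes1, rose early by 0.70 ± 0.065 on the log2 scale (adjusted p = 7.9e-08) and fell late by 0.42 ± 0.064 (adjusted p = 6.1e-05). Hes2, Hes3, Hes5 and Hey2 averaged at most 0.04 FPKM on any day. Of the ligand endocytosis list 6 genes were tested and 0 were differentially expressed in any comparison by edgeR. The background was again 9.77% higher and 7.98% lower early, 4.24% and 2.81% late, and 10.3% and 7.7% over the whole process. At an adjusted p under 0.05 alone 3 of the 6 rose and 2 fell early, beside 35.5% and 33.7%, and 5 had an unadjusted p under 0.05. Epn1, an epsin, rose early by 0.35 on the log2 scale (adjusted p = 5.8e-06), and Dnm1, a dynamin, fell early from 134 ± 2.14 to 74.3 ± 3.55 FPKM (-0.79 on the log2 scale, adjusted p = 1.1e-09).

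Genes through which Pref-1 is known to act were compared as well. Fn1, the matrix protein fibronectin to which Pref-1 binds, fell from 1145 ± 120 FPKM at day 0 to 191 ± 28.1 at day 4 (log2 fold change -2.53 ± 0.10, adjusted p = 2e-12, edgeR) and rose to 309 ± 17.5 at day 8 (0.74 ± 0.096, adjusted p = 1e-05). Sox9, a transcription factor that Pref-1 is known to induce, held 56.0, 60.0 and 60.8 FPKM at day 0, 28.2, 28.02 and 25.0 FPKM at day 4, and 20, 18.5 and 18.1 FPKM at day 8. Its days did not overlap, and unlike Dlk1 it was lowest at day 8. It fell early by 1.06 ± 0.056 on the log2 scale (adjusted p = 7.7e-11), a value of -0.997 without day 4 replicate 3, and fell again late by 0.48 ± 0.058 (adjusted p = 6e-06). Cebpd, an early adipogenic factor repressed by Sox9, rose 4.58-fold early (2.19 ± 0.06, adjusted p = 2.3e-14) and fell late by 2.44 ± 0.061 on the log2 scale (adjusted p = 6e-14). Pparg and Cebpa, the central factors of the fat cell, rose early by 3.00 ± 0.07 and 3.96 ± 0.11 on the log2 scale (adjusted p = 4e-15 and 4.2e-14). Late in the process, where Dlk1 also rose, they rose by 0.52 ± 0.059 and 0.54 ± 0.09 (adjusted p = 2.7e-06 and 0.00013).

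Dlk1 lies in an imprinted domain, and its neighbours in that domain were mostly near 0. Meg3, the noncoding RNA expressed from the other parental copy, averaged at most 0.0133 FPKM on any day and was not tested. Rtl1, Rian, Mirg and Begain averaged at most 0.413 FPKM. Wdr25 averaged 2.09, 2.21 and 2.35 FPKM at day 0, 4 and 8. Its log2 differences of 0.14 early and 0.14 late did not pass the test (adjusted p = 0.30 and 0.35, edgeR). Over the whole process Wdr25 rose by 0.28 (adjusted p = 0.043, edgeR). Outside the rule for naming genes and chosen after their values were seen, Begain fell early (log2 fold change -1.21, adjusted p = 0.0081, and -0.81 with adjusted p = 0.076 without day 0 replicate 3) and Rian rose late (1.36, adjusted p = 0.0016), both at means of at most 0.413 FPKM. Wars, the gene of a transfer RNA synthetase next to the domain, went from 42.5 ± 1.69 to 21.9 ± 0.655 and 31.9 ± 0.28 FPKM, falling early by 0.86 ± 0.048 and rising late by 0.58 ± 0.049 on the log2 scale (adjusted p = 1.4e-10 and 7.9e-08).

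The 5 genes most like Dlk1 over the 9 samples, by Pearson correlation of log2 CPM among 11466 genes, were Arl14ep (r = 0.998), Sertad4 (0.998), Smad6 (0.997), Timp3 (0.997) and Got1 (0.996). The points share 3 days, so these values describe a common course and carry no test. Sertad4 averaged 26.5 ± 0.566, 5.29 ± 0.0987 and 12.6 ± 0.255 FPKM at day 0, 4 and 8 (SD, n = 3), and Timp3, an inhibitor of metalloproteinases, 8.37 ± 0.524, 0.377 ± 0.0651 and 2.36 ± 0.289 FPKM. The other 3 fell and returned by less than Dlk1. Among the members the value was 0.81 for Notch3, 0.67 for Dlk2, 0.55 for Notch2, 0.43 for Hey1, 0.36 for Jag2, 0.35 for Hes1, 0.18 for Jag1 and -0.41 for Notch1.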

How the data were processed

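RNA-seq tables of 9 samples of 3T3-L1 cells were used, 3 for each of day 0, day 4 and day 8, grouped by sample title. Per the study's methods, the authors filtered out poor reads, aligned with HISAT/Bowtie2 and quantified genes with RSEM. The submitters' processing notes name CASAVA 1.4 and Bowtie2. The genome build, the annotation and the strand setting are not given in the sources used here. The deposited expected counts are unnormalized RSEM estimates, of which 29.8% are not whole. For FPKM, the authors divided by gene length and sample depth. A gene not listed in a sample was taken as 0.

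After rounding, expected counts were tested in R 4.3.3 with edgeR 4.0.16 (filterByExpr by day, TMM factors, quasi-likelihood F-test, all 9 samples in one model, 1 coefficient per day). P-values were adjusted by Benjamini-Hochberg over 13154 genes. Standard errors are the log2 fold change divided by the square root of F. The test was checked on simulated counts with known changes. Log2 CPM used a prior count of 2. Promoters came from the RefSeq table of GRCm38.p6.

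The alternatives were DESeq2 size factors, library size alone, the DESeq2 1.42.0 Wald test, glmTreat and the exact test of edgeR, limma 3.58.1 on log2(FPKM + 1) and log2(FPKM + 0.1), other filters, the p threshold alone, models of 2 days, a replicate block and leaving out each sample. Members and lists were chosen with earlier results of these data known. Named genes are the 10 members, pathway list genes that were differentially expressed with a mean of at least 1 FPKM on some day, and the genes that define a list. Other list genes that the text names, such as Rfng, Adam10, Kat2b, Hes6, Epn1, Dnm1, Wars and the markers of cell types, were chosen after their values were seen. Not every list gene is reported here by name. Replicates differed by more than sampling noise, with a chi-square per gene of 2.40 to 10.7, so all 9 samples were counted separately. This spread does not show that the replicates came from separate cultures.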

Additional observations from a re-analysis of the deposited data

How the results depend on the processing

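Of 533 values of the 9 tested members under alternatives, 509 kept their direction and their side of the thresholds, 11 lost a call and 13 changed sign. The sign changes concerned differences that had not passed the test. For Notch1 in the late phase the value was 0.014 with DESeq2 size factors, 0.014 with the DESeq2 Wald test and between -0.017 and 0.026 with a replicate left out. For Notch1 over the whole process it was -0.033 with library size alone, -0.027 with limma on log2(FPKM + 1) and -0.029 on log2(FPKM + 0.1). For Jag2 in the late phase it was -0.0024 with limma on log2(FPKM + 1) and between -0.18 and 0.49 with a replicate left out. Library size alone moved the median of all genes over the whole process from -0.018 to -0.13 on the log2 scale.

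Differentially expressed members numbered 3, 3 and 2 in the early phase, the late phase and the whole process. The p threshold alone gave 5, 5 and 7. Over the whole process the number was 1 with library size alone, glmTreat, limma with either pseudocount and at least 10 counts in every sample, and 1 to 2 with a replicate left out. Hey1 was the gene lost, except under the filter of 10 counts, where Dlk2 was not tested. In the early phase it was 2 with glmTreat and limma on log2(FPKM + 1), where Notch3 was lost, and with the filter of 10 counts, where Dlk2 was not tested. Limma on log2(FPKM + 1) left 1 member in the late phase, without Notch3 and Hey1. The other pathway genes numbered 42, 30 and 48 by the p threshold alone, against 8, 0 and 10. Among further genes named, glmTreat did not call Dll1, Begain and Sox9 early, Rian late or Egfl7 over the whole process. Limma on log2(FPKM + 1) did not call Dll1 in either comparison, Begain, Rian or Egfl7, and limma on log2(FPKM + 0.1) did not call Dll1 early, Begain or Rian.

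Over all genes, 2335, 928 and 2369 were differentially expressed. Limma on log2(FPKM + 1) gave 1272, 360 and 1281, the p threshold alone 9106, 5953 and 9339, and in the late phase glmTreat gave 377 and the filter of 10 counts 483. The replicate block gave 2340, 923 and 2370 genes, with 3, 3 and 2 members and 8, 0 and 10 other pathway genes. Deviations of samples with the same replicate number correlated between -0.035 and 0.075, with a mean of 0.031. The mean for pairs with different numbers was -0.015. Correlations this small cannot tell whether equal numbers mark a shared origin. Of 30 family shares, 24 moved by more than 1 SD when CPM replaced FPKM. Depth limits Dlk2, Jag2, Dll1 and Heyl.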
